A study of Canis lupus familiaris with 11 samples.

Results

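The insulin-like growth factor (IGF) genes were followed through canine stromal vascular fraction (SVF), the mixed cell pellet left when fat is digested and the floating fat cells are drawn off. The set holds 9 genes of 15947 named on the array: the ligands IGF1 and IGF2, the receptor IGF1R, and the binding proteins IGFBP2, IGFBP3, IGFBP4, IGFBP5, IGFBP6 and IGFBP7. A gene was taken where the platform annotation gave its symbol alone, and each of the 9 was represented by 1 feature. All cells came from visceral fat. Dogs 2 and 3, given the same description in the labels (10 years old, neutered male, German Shepard mix), had their fat digested by 1 company. Their cells were profiled without incubation (SVF) or after the company had added platelet-rich plasma (PRP) activated by light and the study's laboratory had kept them for 6 h at 37 °C (PRP). Each dog gave 2 arrays of either kind. There were no incubated cells without PRP, so the plasma and the incubation cannot be told apart. A Labrador (6 years old, neutered male) gave 3 equal portions of about 20 g of fat, which companies A, B and C digested by procedures of their own. Those untreated cells were kept frozen for about 1 month and thawed before RNA extraction, with 1 array per company.

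IGF1 and IGF2 are small peptides related to insulin. Both activate IGF1R, a receptor tyrosine kinase that signals through insulin receptor substrates, PI3-kinase and AKT to growth and survival. Secreted binding proteins hold most IGF outside cells, lengthen its life, and either keep it from the receptor or release it when proteases cut them. In fat, IGF1 is known to be made by stromal cells and macrophages and to drive the maturation of adipocyte precursors.

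Values are log2 expression levels, so a difference of 1 is a 2-fold change. Array medians lay between 6.76 and 6.85 in dogs 2 and 3 and between 5.14 and 5.31 in the company arrays, and no level was compared across these sets. Levels of different genes rest on different probes and were not compared either. The dog 3 PRP arrays stood farther apart than other replicates (root mean square difference 0.516, against 0.347 to 0.365). Differences were tested with limma over all 32391 features with Benjamini-Hochberg adjustment and a threshold of 0.05. The labels do not say whether the paired arrays of a group came from separate preparations. The p-values therefore reflect array-to-array spread, which may be technical. The number of arrays limits the precision. All 9 genes lay above the array median on all 8 arrays of dogs 2 and 3.

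**Figure D1:**
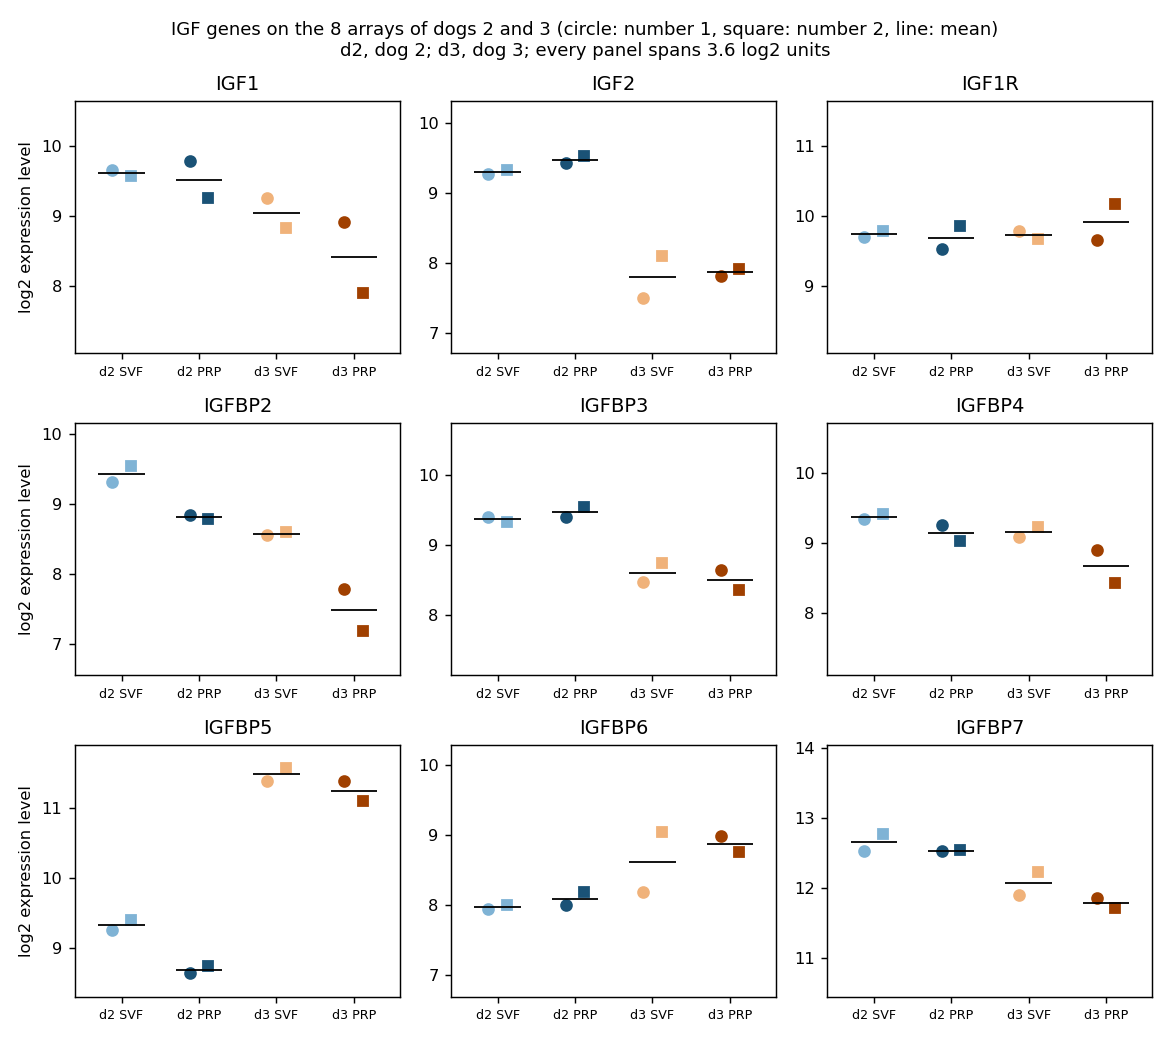
Log2 expression level (vertical axis) of the 9 IGF genes on each array of dogs 2 and 3, by group (horizontal axis), with a line at each group's mean. IGFBP2 stood lower on the PRP arrays of each dog than on its SVF arrays, and IGFBP5 stood near 9 in dog 2 and near 11 in dog 3.

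The first comparison asked which IGF genes differed after PRP with incubation. None of the 9 passed (limma, 0 of 9), against 0.00617% of all features. The largest difference among them was in IGFBP2, at -0.86 ± 0.16 (SE, adjusted p = 0.326), or 1.81-fold lower, and both PRP arrays lay below both SVF arrays in each dog. At an unadjusted p under 0.05 there were 3 members, IGFBP2, IGFBP4 and IGFBP5, all with lower means. Over all features 6.58% met that rule with lower means and 2.87% with higher means. These shares depended on scaling. With each array centred on its median they were 3.94% and 6.02%, and 2 members met the rule, both lower. After quantile normalization of the 8 arrays they were 5.27% and 4.11%, and with same-numbered arrays blocked 8.99% and 5.15%, with 3 members lower under either. Means below zero were found for 6 of 9 members and 55.7% of all features, and the median difference was -0.20 over the members and -0.031 over all features.

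The ligands come first. IGF1, the main local mediator of growth hormone, was at 9.67 and 9.58 in dog 2 SVF, 9.79 and 9.27 in dog 2 PRP, 9.26 and 8.84 in dog 3 SVF, and 8.92 and 7.91 in dog 3 PRP. The last array was the lowest of the 8, and the PRP and SVF arrays overlapped in both dogs. The mean difference was -0.36 ± 0.25 (SE, limma, adjusted p = 0.658), with a 95% interval from -0.94 to 0.21. Without both PRP arrays numbered 2 it was 0.019, so its sign rested on them. IGF2, the fetal growth ligand that also persists in adult tissue of many mammals, was at 9.27 and 9.34 in dog 2 SVF, 9.43 and 9.53 in dog 2 PRP, 7.51 and 8.10 in dog 3 SVF, and 7.81 and 7.92 in dog 3 PRP. The dog 2 PRP arrays lay just above the SVF arrays, and in dog 3 they lay between them. The difference was 0.12 ± 0.16 (SE, limma, adjusted p = 0.818, 95% interval -0.24 to 0.49).

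The receptor differed least between animals and conditions in absolute spread. IGF1R ranged from 9.53 to 10.17 over the 8 arrays, with a standard deviation of 0.19, the smallest of the 9. Its PRP difference was 0.067 ± 0.16 (SE, limma, adjusted p = 0.908, 95% interval -0.30 to 0.43), and all 4 groups overlapped one another.

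Among the binding proteins, IGFBP2, a carrier with an integrin-binding motif that is secreted by several tissues including fat, was at 9.32 and 9.54 in dog 2 SVF and at 8.84 and 8.78 in dog 2 PRP. In dog 3 it was at 8.55 and 8.60 in SVF and at 7.78 and 7.18 in PRP. The groups did not overlap in either dog, and the dog 3 PRP arrays were the lowest of all. The number 1 pairs differed by -0.47 in dog 2 and -0.77 in dog 3, the number 2 pairs by -0.76 and -1.42. The shared sign of the 4 pairs follows from the lack of overlap. The 95% interval of the mean difference ran from -1.23 to -0.48, a level of 0.426 to 0.717 times that in SVF before any adjustment for the number of features. With each of the 4 same-numbered pairs blocked, the adjusted p (limma) was 0.228, and over 18 alternatives it lay between 0.102 and 0.927 with differences from -1.01 to -0.69.

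IGFBP5, a binding protein that attaches to extracellular matrix, was at 9.25 and 9.41 in dog 2 SVF and at 8.64 and 8.75 in dog 2 PRP. In dog 3 it was at 11.39 and 11.57 in SVF and at 11.39 and 11.10 in PRP. The groups were clearly apart in dog 2, whereas in dog 3 the number 1 arrays were practically equal, with a difference of -0.00060. The mean difference was -0.43 ± 0.13 (SE, limma, adjusted p = 0.446), or 1.35-fold lower. IGFBP4, which restrains IGF action and is the classic substrate of the protease PAPPA, was at 9.33 and 9.40 in dog 2 SVF, 9.26 and 9.02 in dog 2 PRP, 9.08 and 9.22 in dog 3 SVF, and 8.90 and 8.42 in dog 3 PRP. Its PRP arrays lay below its SVF arrays in both dogs, with a mean difference of -0.36 ± 0.15 (SE, limma, adjusted p = 0.520). Without both PRP arrays numbered 2 this difference was -0.18, less than the -0.36 by more than 1.5 times. Arrays below SVF without overlap in both dogs were thus seen for 3 of 9 members, against 8.21% of all features, and above SVF for 0 of 9, against 4.21%. IGFBP5 entered that count through the near-equal number 1 arrays of dog 3 and left it under both other scalings. With arrays centred on their medians 2 members lay below (IGFBP2 and IGFBP4), against 4.79%, and 0 above, against 8.85%. After quantile normalization 3 lay below (IGFBP2, IGFBP4 and IGFBP7), against 6.46%, and 0 above, against 6%.

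The other binding proteins differed little. IGFBP3, the main carrier of IGF in blood, ranged from 9.32 to 9.53 in dog 2 and from 8.35 to 8.74 in dog 3, and its PRP difference was -0.0042 ± 0.13 (SE, limma, adjusted p = 0.994). That sign turned when arrays were centred on their medians (0.069) or quantile normalized (0.013). IGFBP6, which binds IGF2 in preference to IGF1, lay between 7.94 and 8.19 in dog 2 and between 8.18 and 9.04 in dog 3. Its dog 3 SVF arrays were 8.18 and 9.04, the widest replicate gap among the SVF values of the 9 genes, and its PRP difference was 0.19 ± 0.20 (SE, limma, adjusted p = 0.774). IGFBP7, a low-affinity relative abundant in vessel walls, was at 12.52 and 12.77 in dog 2 SVF, 12.52 and 12.53 in dog 2 PRP, 11.90 and 12.23 in dog 3 SVF, and 11.86 and 11.72 in dog 3 PRP. The PRP arrays lay below the SVF arrays in dog 3 alone, and the difference was -0.20 ± 0.13 (SE, limma, adjusted p = 0.657).

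**Figure D2:**
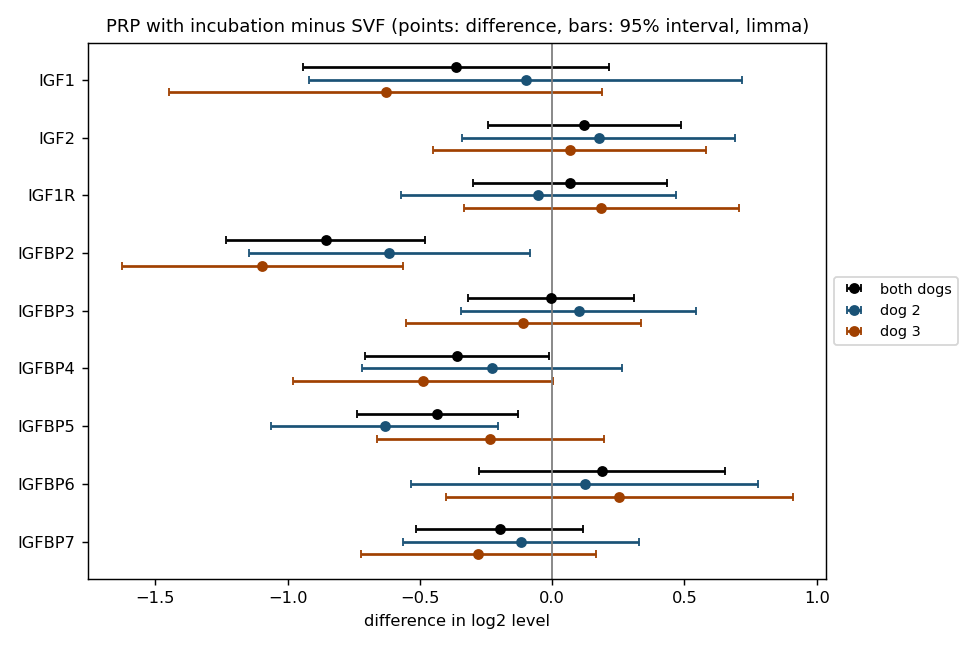
Difference in log2 level between PRP with incubation and SVF (horizontal axis) for the 9 IGF genes, as the mean of both dogs and within each dog, with bars for the 95% interval of the limma fit before adjustment. The interval for both dogs lies below zero for IGFBP2, IGFBP4 and IGFBP5 and spans zero for the other 6 genes.

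Whether the dogs differed in these effects was tested by the interaction term. No member passed (limma, 0 of 9, and 0 of 9 at an unadjusted p under 0.05), against 0% of all features after adjustment and 1.91% before it. Within dog 2 no member passed, and 2 (IGFBP2 and IGFBP5) had an unadjusted p under 0.05, against 0% and 4.39% of all features. Within dog 3 none passed either, and 1 (IGFBP2) had such a p, against 0% and 6.1%. IGFBP2 differed by -0.62 ± 0.23 within dog 2 and by -1.10 ± 0.23 within dog 3 (SE), and the interval of the difference between these ran from -0.27 to 1.23. IGFBP5 went the other way in size, with -0.63 ± 0.18 within dog 2 and -0.23 ± 0.18 within dog 3 (SE), and an interval from -1.01 to 0.21. IGF1 differed by -0.099 in dog 2 and by -0.63 in dog 3, with an interval from -0.63 to 1.69. The intervals leave a wide range of unequal effects possible in all 3 genes.

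Markers of other cell types also had different means. Of the lists given here only platelet markers had a member that passed (1 of 8, higher after PRP), against 0.00617% of all features. Of 9 measured adipocyte markers all had lower means after PRP, 6 of them at an unadjusted p under 0.05, with a median of -0.74. Over all features 55.7% had lower means, and 6.58% had lower means at such a p (3.94% with arrays centred on their medians). The mean level of that list was 11.60 to 11.91 in dog 2 SVF, 11.20 to 11.34 in dog 2 PRP, 10.75 to 10.98 in dog 3 SVF and 9.66 to 10.13 in dog 3 PRP. These list means lay above every array's median, although SVF is by definition freed of floating fat cells. The source of this RNA was not tested. Lower means were also seen for 9 of 10 markers of pericytes and smooth muscle, 4 of them at an unadjusted p under 0.05, and the list mean was 9.23 to 9.41, 9.07 to 9.10, 8.26 to 8.31 and 7.80 to 8.03 in the same order of groups. Of 10 endothelial markers 8 had lower means (median -0.31), 1 of them at an unadjusted p under 0.05. All 10 T cell markers had higher means (median 0.41), as did 6 of 8 macrophage markers (median 0.26), and 10 stromal progenitor markers had a median of -0.14. In bulk RNA, fewer cells of a type and less RNA per cell cannot be told apart, and the part of these markers in the IGF values was not tested.

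The next comparison set the dogs against each other, first in untreated SVF. IGFBP5 was 4.44-fold lower in dog 2, with a mean of 9.33 ± 0.11 there and 11.48 ± 0.13 in the other animal (SD, n = 2; limma, adjusted p = 0.00704). IGF2 was 2.83-fold higher in dog 2, at 9.30 ± 0.049 against 7.80 ± 0.42 (SD, n = 2, limma, adjusted p = 0.0288). These were 2 of 9 members, 1 in each direction, against 1.28% of all features (0.568% higher in dog 2 and 0.71% lower). At an unadjusted p under 0.05 there were 5, against 11.7% of all features, with IGFBP2, IGFBP3 and IGFBP7 higher in dog 2. Animal, fat sample and digestion cannot be told apart here.

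The PRP arrays, separate arrays from the same 2 dogs, gave the same order. IGFBP5 was at 8.70 ± 0.074 in dog 2 and at 11.25 ± 0.20 in dog 3 (SD, n = 2), 5.86-fold lower in dog 2 (limma, adjusted p = 0.00540). IGF2 was at 9.48 ± 0.070 and 7.87 ± 0.078 (SD, n = 2), 3.05-fold higher in dog 2 (limma, adjusted p = 0.0190). IGFBP2 passed in these arrays as well, at 8.81 ± 0.048 against 7.48 ± 0.43 (SD, n = 2), 2.52-fold higher in dog 2 (limma, adjusted p = 0.0357), so 3 of 9 members passed against 1.92% of all features. In SVF the IGFBP2 difference was 0.85 ± 0.23 (SE, limma, adjusted p = 0.148), and the interaction test above did not separate the 1.33 in PRP from it.

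Apart from IGF1R, the arrays of the dogs did not overlap for any member, in SVF or in PRP, and kept the same order in both. That was 8 of 9 members against 18.6% of all features (the same 8 against 18.7% with arrays centred and 19.7% after quantile normalization), with 6 higher in dog 2 (IGF1, IGF2, IGFBP2, IGFBP3, IGFBP4 and IGFBP7) and 2 higher in dog 3 (IGFBP5 and IGFBP6). For IGFBP3 the difference was 0.76 ± 0.19 in SVF (SE, limma, adjusted p = 0.126) and 0.97 ± 0.19 in PRP (adjusted p = 0.0554). For IGF1 it was 0.58 ± 0.35 in SVF (SE, limma, adjusted p = 0.655) and 1.11 ± 0.35 in PRP (adjusted p = 0.230). IGFBP7 differed by 0.58 ± 0.19 and 0.74 ± 0.19 (SE), and IGFBP6 by -0.64 ± 0.28 and -0.77 ± 0.28, without passing in either. IGFBP4 differed by 0.22 ± 0.21 in SVF and 0.48 ± 0.21 in PRP (SE), with 95% intervals from -0.28 to 0.71 and from -0.014 to 0.97. IGF1R differed by 0.014 in SVF, with a 95% interval from -0.51 to 0.53, and by -0.22 in PRP.

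**Figure D3:**
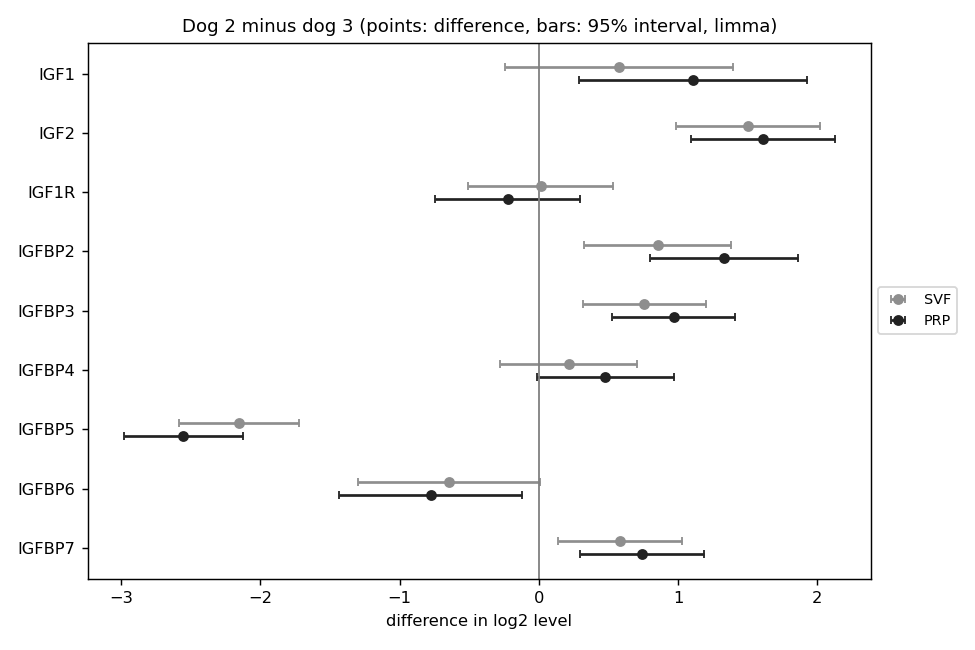
Difference in log2 level between dog 2 and dog 3 (horizontal axis) for the 9 IGF genes in SVF and in PRP, with bars for the 95% interval of the limma fit before adjustment. IGFBP5 lies farthest below zero, IGF2 farthest above it, and IGF1R and IGFBP4 span it in both.

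Single arrays decided several of these calls, while the differences themselves kept their sign. The IGFBP5 call in SVF was lost without any 1 of the 4 SVF arrays (limma, adjusted p between 0.0584 and 0.0926), with differences from -2.24 to -2.06. In PRP it did not hold without either dog 2 PRP array (limma, adjusted p = 0.0572 and 0.0584) and held in the other 6 runs. The IGF2 call in SVF did not hold when dog 2 SVF replicate 1 (limma, adjusted p = 0.121) or 2 (0.182), dog 3 SVF replicate 1 (0.131) or 2 (0.0632), or either dog 2 PRP array (0.0664 for each) was left out, with differences from 1.21 to 1.80. In PRP it was lost without any 1 of the 4 PRP arrays (adjusted p between 0.0538 and 0.130). The IGFBP2 call in PRP held in 1 of 8 such runs, the one without dog 3 PRP replicate 1, and adjusted p rose as high as 0.220 in the others. A group left with 1 array was assumed to vary like the others.

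IGFBP2 and IGFBP5 are neighbouring genes among the protein-coding genes of the UU_Cfam_GSD_1.0 dog assembly. Their order between the dogs was opposite, IGFBP2 being higher in dog 2 and IGFBP5 in dog 3, while both had lower means after PRP. IGFBP3 neighbours IGFBP1 in the same assembly. No other pair of the 9 was adjacent.

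Cell type markers also separated the dogs. Over all features 1.28% passed in SVF (0.568% higher in dog 2 and 0.71% lower), and 11.7% had an unadjusted p under 0.05. The median difference over all features was -0.026. All 10 endothelial markers had higher means in dog 2 SVF, 5 of them past the threshold, with a median of 1.55, and the list mean was 10.55 to 10.88 in dog 2 SVF and 9.22 to 9.35 in dog 3 SVF. Of 10 pericyte and smooth muscle markers 9 were higher in dog 2, 3 past the threshold, and of 9 adipocyte markers all were higher, 2 past it. Stromal progenitor markers went the other way, with 10 of 10 lower in dog 2 (median -0.33, 1 past the threshold) and a list mean of 11.69 to 11.78 against 12.23 to 12.31 in dog 3. All 8 macrophage markers also had lower means in dog 2 SVF (median -0.51), with 0 past the threshold or at an unadjusted p under 0.05 (limma) and list means that overlapped, at 9.13 to 10.09 against 9.87 to 10.34. The part of these markers in the IGF values was not tested.

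Genes with the pattern closest to a member were sought by the root mean square difference of the 8 values, each centred on its mean, over 5235 genes with a standard deviation of at least 0.3. This was done for the 4 members with the largest spread and is a description, since all genes share the same arrays. IGFBP2 (standard deviation 0.77) was closest to MCAM, an adhesion molecule of perivascular and endothelial cells, at 0.109 log2 units, and to ALS2CL at 0.170. MCAM was at 9.98 and 9.92 in dog 2 SVF, 9.33 and 9.29 in dog 2 PRP, 8.92 and 8.94 in dog 3 SVF, and 8.13 and 7.74 in dog 3 PRP, so its 4 groups stood in the same order as those of IGFBP2, without overlap. IGF1 (0.61) was closest to CCDC15 (0.110) and PACSIN1 (0.134), both with their lowest value on the second dog 3 PRP array. IGF2 (0.85) was closest to CMA1, mast cell chymase (0.183), and SLC16A9, a carboxylate transporter (0.186). IGFBP5, with the largest standard deviation of 1.29, was closest to DPP10 (0.249) and TEX26 (0.259). In dog 2 DPP10 lay between 4.49 and 4.91, below the array medians, where background may set the level.

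**Figure D4:**
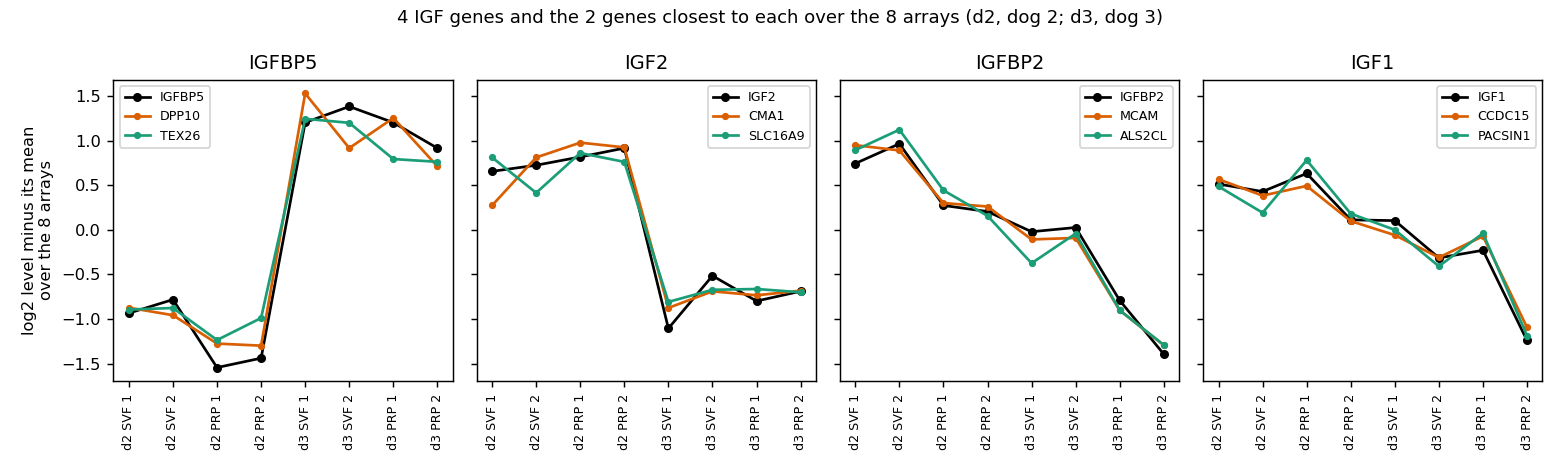
Log2 level minus the gene's own mean over the 8 arrays (vertical axis) on each array (horizontal axis) for IGFBP5, IGF2, IGFBP2 and IGF1, each with its 2 closest genes. The MCAM line follows IGFBP2 within a root mean square difference of 0.109.

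The rest of the pathway was read from 5 lists of 70 genes, of which 65 were measured. After PRP none passed (limma, 0 of 65), and 6 had an unadjusted p under 0.05 (9.23%, against 9.45% of all features), 2 with higher and 4 with lower means. Lower means were found for 55.7% of all features, whose median difference was -0.031, or 0.042 with arrays centred on their medians. Directions within the lists were not counted with arrays centred. Of 14 proteases that cut binding proteins and their inhibitors, 11 had higher means (median 0.11). ADAM9, a membrane protease, differed by 0.39 ± 0.18 and PLAT, tissue plasminogen activator, by -0.25 ± 0.12 (SE). Of 8 other receptors, carriers and binding proteins 7 had lower means (median -0.11), among them IGFBP1, the binding protein known mainly from liver, at -0.35 ± 0.12 (SE, limma, adjusted p = 0.478), and INSR, the insulin receptor, at -0.44 ± 0.24. IGFBP1 lay between 4.99 and 5.57, below every array's median.

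The growth hormone axis had 6 of 9 genes with lower means (median -0.23), against 55.7% of all features. STAT5B, a transcription factor downstream of the growth hormone receptor, differed by -0.33 ± 0.15 and SOCS1, a feedback inhibitor, by -0.27 ± 0.15 (SE). All 3 proteins that bind IGF2 mRNA had higher means (median 0.43). IGF2BP3 differed by 0.74 ± 0.20 (SE, limma, adjusted p = 0.413), at 3.73 and 3.76 in dog 2 SVF, 5.15 and 4.45 in dog 2 PRP, 4.12 and 3.57 in dog 3 SVF, and 4.19 and 4.35 in dog 3 PRP. All 8 values were below their array medians. Its PRP arrays lay above its SVF arrays in both dogs, against 4.21% of all features (8.85% with arrays centred on their medians). In dog 3 the nearest values were 4.12 in SVF and 4.19 in PRP. IGF2BP2 differed by 0.43 ± 0.24 (SE). Of 31 genes of receptor signalling 21 had lower means (median -0.11), against the same 55.7%. AKT2, an insulin-responsive kinase, differed by -0.56 ± 0.17 (SE, limma, adjusted p = 0.454). INPPL1, a lipid phosphatase that damps PI3-kinase signals, differed by -0.35 ± 0.13 (SE).

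Between the dogs in SVF 3 of the 65 genes passed (limma, 4.62%, against 1.28% of all features), all in the protease list and all higher in dog 3. STC2, a secreted inhibitor of PAPPA, differed by -1.47 ± 0.20 for dog 2 minus dog 3 (SE, limma, adjusted p = 0.0244) and PLAT by -1.23 ± 0.17 (adjusted p = 0.0250). MMP2, a gelatinase, differed by -1.14 ± 0.18 (adjusted p = 0.0366) and is named after its values were seen. After PRP MMP2 differed by -1.22 (limma, adjusted p = 0.0233), PLAT by -0.88 (0.0538) and STC2 by -1.03 (0.0531). CAV1, the coat protein of caveolae, was higher in dog 2 by 0.79 in SVF (adjusted p = 0.0767) and by 0.88 in PRP (adjusted p = 0.0473). In the other 4 lists no gene passed in SVF. LRP1, an endocytic receptor, differed by -0.37, GHR, the growth hormone receptor, by 0.62, and JAK2, its kinase, by -0.52. IRS2, an adaptor of both insulin and IGF receptors, differed by -0.79, PTPN1, a phosphatase that acts on those receptors, by -0.50, IGF2BP1 by -0.30 and IGF2BP3 by -0.10.

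The last comparison was between companies A, B and C, whose fat came from a single dog. With 1 array each there was no test, and a difference of at least 1 log2 unit was used as the mark. IGF1 alone met it, 1 of 9 members against 16.7% of all features. It was at 6.93 for company A, 4.81 for company B and 6.77 for company C, so it was 4.35-fold lower for B than for A and 3.88-fold lower than for C. Over all features 5.2% were lower for B than for both others by that much. The B value lay below that array's median of 5.14, where background may set the level, and signal over background was not measured.

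Several cell type markers also differed on the same array. Among all features 5.2% were lower for B than for both others by at least 1 log2 unit, and the share higher for B was not counted. Of 8 macrophage markers 7 were lower for B by that much, with a list mean of 8.15 for A, 5.45 for B and 8.07 for C. The same held for 6 of 10 T cell markers, with list means of 6.23, 4.30 and 6.27, and for 5 of 10 endothelial markers, with 6.22, 4.87 and 6.65. Stromal progenitor markers were at 11.10, 10.18 and 11.16, with 2 of 10 lower by that much. Pericyte and smooth muscle markers did not share this order, at 5.76, 6.10 and 5.85, with 2 of 10 higher for B than for both others by that much and 1 lower. Platelet markers were highest for C, at 5.49, 5.40 and 7.37, with 0 of 8 lower or higher for B than for both others by that much. Adipocyte markers were at 5.69, 5.02 and 6.17, with 1 of 9 lower for B by that much. Mesothelial markers were at 5.70, 5.49 and 6.23, with 2 of 9 lower, and erythroid markers at 6.60, 4.96 and 6.07, with 2 of 6 lower. The part of all these markers in the IGF1 value was not tested.

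No other member reached 1 log2 unit between any 2 companies. IGF2 was at 6.24 for A, 6.04 for B and 6.99 for C, and IGFBP5 at 9.24, 8.86 and 9.79, so both were highest for C and lowest for B. IGFBP7 was at 10.86, 11.37 and 10.40 and IGF1R at 8.16, 8.35 and 7.82, in the opposite order. The IGFBP7 difference between B and C was 0.97, and it was 1.09 with each array centred on its median and 1.08 after quantile normalization, past the mark. IGFBP3 was at 5.08, 4.82 and 5.38, below the array median for A and B, and IGFBP2 at 5.57, 5.90 and 5.78.

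IGFBP4 was at 6.80, 7.18 and 6.80, with A and C identical, and IGFBP6 at 6.28, 6.28 and 6.47, with A and B identical. Exactly 2 of the 3 company values were identical in 25.2% of all features and all 3 in 29.5%, so equal values in this set need not mean equal RNA.

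**Figure D5:**
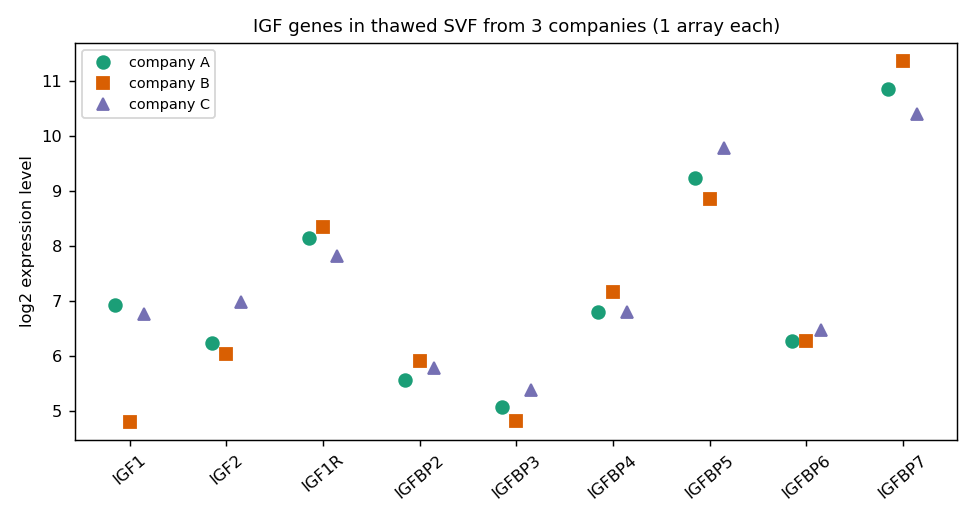
Log2 expression level (vertical axis) of the 9 IGF genes (horizontal axis) in thawed SVF from companies A, B and C, 1 array each. Only the 3 symbols within a gene can be compared; IGF1 for company B, at 4.81, stands apart from A and C.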

How the data were processed

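The deposited log2 expression levels came from biotin-labelled RNA (6 µg) on Affymetrix arrays, per the labels' protocols; the log2 scale was judged from the values (1.22 to 14.8). Partek is named, per the submitters' processing notes. How features were summarized and normalized, and the build, are steps not given in the sources used here. Coordinates are therefore left out. Of 32391 features, 16545 named 1 gene, 370 several and 15476 none; 8 of 9 members matched a gene identifier in RefSeq's dog table, and IGFBP3 matched by symbol.

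The 8 arrays of dogs 2 and 3 were fitted as 4 group means (limma 3.58.1, R 4.3.3, lmFit and eBayes, 4 residual degrees of freedom, no filter). The PRP contrast averaged both dogs. Arrays for that contrast were simulated over 32391 features, with independent noise on each array and planted changes that were equal in both dogs. There 67% of the 1-unit and 95% of the 2-unit log2 changes were recovered, with 5.81% of calls false. Same-numbered measured arrays deviated together (r over features 0.230 in dog 2, 0.160 in dog 3, 0.165 to 0.399 across dogs), so the 4 pairs were also fitted as a replicate block. The simulated arrays had no such shared deviations, so their recovery need not hold for the measured arrays. Other alternatives changed the filter, scaling, variance model, model terms and arrays used.

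Members and lists were chosen with earlier results of these data known. All members were named; of each list, the 2 genes with the smallest p in PRP minus SVF and in dog 2 minus dog 3 SVF, and for the 4 members of largest spread the 2 closest genes.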

Additional observations from a re-analysis of the deposited data

How the results depend on the processing

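With a replicate block for the 4 pairs of equal number, 0 of 32391 features passed in PRP minus SVF, against 2, and 0 of 9 members, as in the main fit; the block changed no member's call. The 2 features became 1 with the filter on dim features, the additive model, condition alone and the replicate number as a term, and 0 with 1 mean per dog and condition, without both PRP arrays numbered 2 and in all 8 runs that left out 1 array (0 to 0). The 414 features between the dogs in SVF became 741 with the filter and 652 with the number as a term, and lay between 6 and 385 when 1 array was left out; the members called lay between 0 and 2. In PRP the 622 features lay between 3 and 620 and the 3 members between 0 and 2 when 1 array was left out, and between 582 and 887 features and 3 and 4 members under the other settings. The fourth member was IGFBP3, with the filter (limma, adjusted p = 0.0219) and with a trended, robust variance (0.0449). The alternatives for this comparison, for arrays that did not overlap, and without both PRP arrays numbered 2 were chosen after seeing the data. In the company set 2 members reached 1 log2 unit under either other scaling, against 1.

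Signs turned in small PRP differences that had not passed. For IGFBP3 these were array centring (0.069) and quantile normalization (0.013). Without both PRP arrays numbered 2 they were IGF1 (0.019), IGF1R (-0.14) and IGFBP3 (0.032). Leaving out 1 array gave -0.026 to 0.27 for IGF2, -0.059 to 0.19 for IGF1R, -0.076 to 0.068 for IGFBP3 and -0.025 to 0.40 for IGFBP6. The difference between the dogs' effects then ran from -0.18 to 0.41 for IGF2, -0.49 to 0.013 for IGF1R, -0.56 to 0.30 for IGFBP6 and -0.0022 to 0.32 for IGFBP7. Dog 2 minus dog 3 for IGF1R ran from -0.047 to 0.074 in SVF and from -0.48 to 0.026 in PRP. The cause of these changes was not tested. Some of the settings used fewer features or arrays. Each member had 1 feature, so averaging features changed nothing. Signal over background was not measured.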
